A study of Homo sapiens with 12 samples.

Results

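AXL, NGFR, ZEB1, TNC and SOX9 are genes whose high expression marks melanoma cells that have left the pigmented, melanocytic state, and all 5 were found among the 14580 genes measured. They were chosen by name, and each was represented by its only probe set on the array: 16862439 for AXL (chromosome 19), 16835592 for NGFR (chromosome 17), 16703715 for ZEB1 (chromosome 10), 17097661 for TNC (chromosome 9) and 16837418 for SOX9 (chromosome 17). The cells were A2058, an established human melanoma line, treated for 24 h and profiled on 12 Affymetrix arrays. The groups, of 3 arrays each, were dabrafenib at 100 nM with trametinib at 10 nM (DT), entinostat at 1 µM (E), all 3 drugs at these doses (DTE), and the solvent control DMSO. Dabrafenib inhibits RAF kinases, trametinib inhibits MEK, and entinostat inhibits class I histone deacetylases. The titles call the arrays biological replicates and the series design calls them technical triplicates, so p-values cover only the spread between arrays, which may be technical, and all results are from 1 cell line at 1 time.

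Melanoma cells move between a melanocytic state, held by the transcription factors MITF and SOX10, a neural crest-like state marked by the receptor NGFR, and an undifferentiated, mesenchymal state marked by the receptor tyrosine kinase AXL. ZEB1 is a zinc finger repressor that binds E-box sequences and belongs to the programme of epithelial-mesenchymal transition. TNC encodes tenascin C, a glycoprotein of the extracellular matrix, and SOX9 encodes a SOX transcription factor that acts in the neural crest and opposes SOX10 in melanoma. Cells in the less differentiated states are known for their tolerance of RAF and MEK inhibitors, and the comparisons ask how the inhibitors and entinostat, alone and together, set the 5 genes.

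The promoter windows of the 3 members for which RefSeq (GRCh38.p14) gave one are shown because TNC and ZEB1 moved together in the data and AXL moved apart from them. Each window is the 250 bases before the most upstream annotated start, on the gene's own strand, and capitals mark a match to a searched motif. The windows are chr9:115118158-115118407 (minus strand) for TNC, chr10:31318167-31318416 (plus strand) for ZEB1 and chr19:41218973-41219222 (plus strand) for AXL.
TNC: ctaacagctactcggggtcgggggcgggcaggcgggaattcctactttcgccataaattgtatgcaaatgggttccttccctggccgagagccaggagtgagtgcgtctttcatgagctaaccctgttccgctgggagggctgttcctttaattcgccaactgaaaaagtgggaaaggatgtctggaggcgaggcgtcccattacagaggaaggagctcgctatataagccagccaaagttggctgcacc
ZEB1: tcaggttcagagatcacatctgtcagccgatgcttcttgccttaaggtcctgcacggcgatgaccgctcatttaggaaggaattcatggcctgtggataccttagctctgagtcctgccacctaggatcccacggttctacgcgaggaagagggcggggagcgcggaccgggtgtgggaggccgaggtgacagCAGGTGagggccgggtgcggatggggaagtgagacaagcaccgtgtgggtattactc
AXL: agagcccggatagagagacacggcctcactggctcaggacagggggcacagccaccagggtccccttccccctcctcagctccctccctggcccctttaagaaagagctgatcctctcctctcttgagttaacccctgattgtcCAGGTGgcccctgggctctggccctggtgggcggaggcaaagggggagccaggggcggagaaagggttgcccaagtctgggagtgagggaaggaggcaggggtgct
The motifs were searched on both strands, with no overlap between matches. The E-box of the kind ZEB1 binds, CACCTG, was present as its reverse complement 57 to 52 bases before the ZEB1 start and 106 to 101 bases before the AXL start, and 17.5% of all 35116 windows of this length held it. The letters of the other motifs were not in these 3 windows: TGANTCA of AP-1 (6.57% of all windows held it), GGAATG of TEAD (11.9%), CCGGAA of ETS (14.5%) and AACAAT of SOX factors (8.98%).

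The array medians of log2 intensity averaged 4.48 ± 0.106 in DT, 4.88 ± 0.0168 in E, 4.66 ± 0.0448 in DTE and 4.68 ± 0.111 in DMSO (SD, n = 3), so changes of the 5 genes are also given after quantile normalization where the call differs, and orders and overlaps of groups are those of the deposited values unless stated. In every group the 5 genes lay above the lower quartile of genes, which was at most 3.12. Whether a probe set stood above background was not measured. As a check of the drug labels, all 8 measured ERK output genes fell in DT and in DTE against DMSO, with medians of -3.55 and -3.44 on the log2 scale, while 1 rose and 0 fell in E. Of 6 measured melanocyte markers, 6 in DT, 5 in E, 6 in DTE and 5 in DMSO lay above the median gene of their group.

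**Figure D1:**
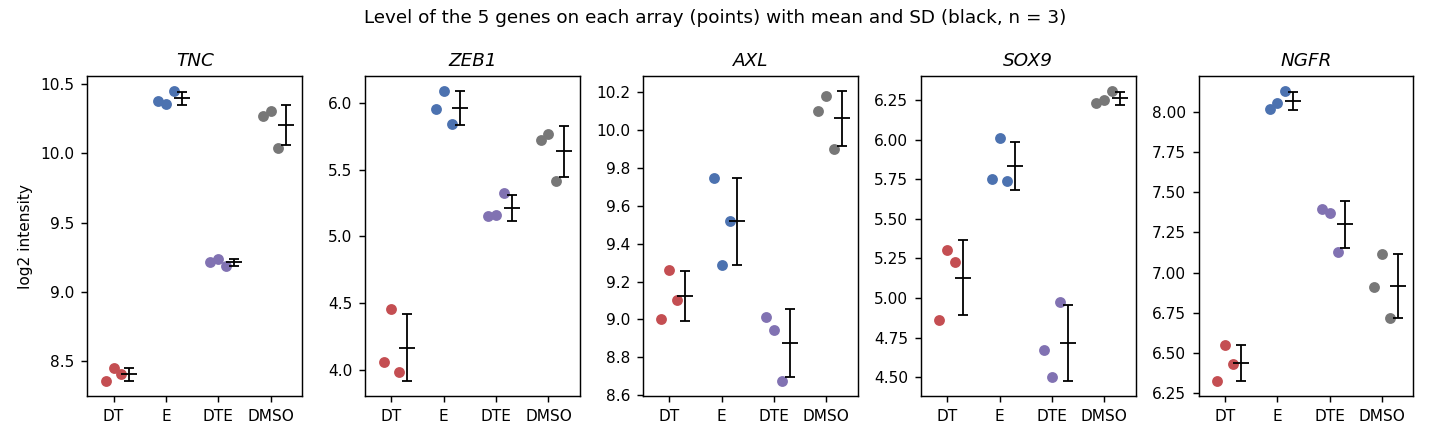
Log2 intensity (vertical axis, scaled per gene) of TNC, ZEB1, AXL, SOX9 and NGFR on each of the 3 arrays of DT, E, DTE and DMSO (points), with the mean and SD in black. TNC and ZEB1 were lowest in DT and highest in E, AXL and SOX9 were lowest in DTE and highest in DMSO, and NGFR was lowest in DT and highest in E.

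TNC, the matrix gene, was lower under dabrafenib and trametinib, and less so when entinostat was added. In these bulk samples fewer cells of a type and less RNA per cell cannot be told apart. Its log2 intensity was 8.35, 8.45 and 8.41 in DT, 10.38, 10.36 and 10.45 in E, 9.22, 9.24 and 9.19 in DTE, and 10.27, 10.31 and 10.04 in DMSO. The 4 groups did not overlap, and their order was E, DMSO, DTE, DT from high to low. TNC fell 3.49-fold in DT against DMSO (log2 change -1.80, SE 0.11, adjusted p = 1.4e-09), the 82nd lowest change of 14580 genes. In DTE it fell 1.99-fold against DMSO (-0.99, adjusted p = 2.9e-06), and it was 1.76-fold higher in DTE than in DT (0.81, SE 0.11, adjusted p = 3.7e-05). E and DMSO, neighbours in this order, were not distinguished (0.19, 95% confidence interval -0.04 to 0.43, adjusted p = 0.28), although their arrays did not overlap.

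ZEB1, the E-box repressor, followed the same order of groups at a lower intensity. It had log2 intensities of 4.06, 4.46 and 3.99 in DT, 5.95, 6.09 and 5.84 in E, 5.15, 5.16 and 5.32 in DTE, and 5.73, 5.77 and 5.42 in DMSO. No 2 groups overlapped, and all DT arrays lay lowest. ZEB1 fell 2.77-fold in DT against DMSO (-1.47, SE 0.14, adjusted p = 4.4e-07). It was 2.06-fold higher in DTE than in DT (1.04, SE 0.14, adjusted p = 3e-05), the 363rd highest of the 14580 changes. Against DMSO, ZEB1 in DTE stood at -0.43 (adjusted p = 0.027), a call that was lost without any one of 4 arrays: DMSO replicate 1 (-0.38, adjusted p = 0.094) or 2 (-0.36, 0.11), or DTE replicate 1 (-0.40, 0.077) or 2 (-0.40, 0.079). E against DMSO was 0.32 (95% confidence interval 0.03 to 0.62, adjusted p = 0.14), and after quantile normalization the arrays of these 2 groups overlapped.

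The miR-200 family is known to repress ZEB1, and ZEB1 to repress the miR-200 genes, so the 4 of its precursor loci found on the array were read as well, having been chosen after the array's content was known. The mature sequences (RefSeq, GRCh38.p14) fall into groups by seed, shown in capitals.
hsa-miR-200b-3p: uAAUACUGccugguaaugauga
hsa-miR-200c-3p: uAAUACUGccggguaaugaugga
hsa-miR-200a-3p: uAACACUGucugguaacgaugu
hsa-miR-141-3p: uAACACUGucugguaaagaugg
The upper pair shares the seed AAUACUG and the lower pair the seed AACACUG. MIR200B and MIR200A are on chromosome 1 and MIR200C and MIR141 on chromosome 12. Over the 12 arrays MIR200C ranged from 1.58 to 2.80, MIR200A from 2.38 to 3.17, MIR200B from 2.49 to 3.18 and MIR141 from 3.12 to 3.57 log2 units, where the lower quartile of genes lay between 2.91 and 3.12 in the 4 groups; the group means of MIR141 lay above it. In none of the 6 comparisons did any of the 4 loci pass the threshold (0 of 24 tests by limma, and 1 of 24 at an unadjusted p under 0.05: MIR200C in E against DMSO, -0.46, adjusted p = 0.17). These probe sets read the precursor loci, and mature miRNA was not analysed here. ZEB1-AS1, the antisense neighbour of ZEB1, stood at -0.23 in DT against DMSO (adjusted p = 0.17) and at 0.01 in DTE against DT (adjusted p = 0.97). In DTE against E it fell by 0.38 (adjusted p = 0.026), its one call, where ZEB1 fell by 0.75; whether the array tells the strands apart was not tested.

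AXL, the receptor for the ligand GAS6, was lowered by each treatment. Its log2 intensity was 9.00, 9.26 and 9.10 in DT, 9.75, 9.29 and 9.52 in E, 9.01, 8.94 and 8.67 in DTE, and 10.10, 10.18 and 9.90 in DMSO. All 9 treated arrays lay below all 3 DMSO arrays, while DTE and DT overlapped. AXL fell 1.92-fold in DT (-0.94, SE 0.14, adjusted p = 8.1e-05) and 2.27-fold in DTE (-1.19, SE 0.14, adjusted p = 5.1e-06), both against DMSO. In E it stood at -0.54 (adjusted p = 0.012), and this call was lost without E replicate 2 (-0.43, adjusted p = 0.072). DTE and DT were not distinguished (-0.25, 95% confidence interval -0.54 to 0.05, adjusted p = 0.27; -0.42 and adjusted p = 0.029 after median centring). DTE less E was -0.64 (adjusted p = 0.0034), a call lost after quantile normalization (-0.40, adjusted p = 0.064). The order was DMSO, E, DT, DTE from high to low; E and DT, which were not tested against each other, did not overlap. After quantile normalization they did (9.22 to 9.60 in E and 9.26 to 9.31 in DT), and after median centring both stood at -0.74 against DMSO, so the order of E and DT turns on the scaling.

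SOX9 showed the lowest values where all 3 drugs were combined. It had log2 intensities of 4.86, 5.30 and 5.23 in DT, 5.75, 6.01 and 5.74 in E, 4.67, 4.50 and 4.97 in DTE, and 6.23, 6.25 and 6.31 in DMSO. The treated arrays all lay below the DMSO arrays, and DTE replicate 3 lay above DT replicate 1, so those 2 groups overlapped. SOX9 fell 2.92-fold in DTE against DMSO (-1.55, SE 0.14, adjusted p = 2.9e-07), the 69th lowest of 14580 changes and the largest of the 5 members in that comparison. In DT it fell 2.19-fold (-1.13, SE 0.14, adjusted p = 1.4e-05). The effect of entinostat lay at the threshold in both settings: -0.43 in E against DMSO and -0.42 in DTE against DT, each with adjusted p = 0.052. Quantile-normalized values passed in both (E against DMSO -0.52, adjusted p = 0.019; DTE against DT -0.60, 0.0062), and both also passed with the replicate number as a block (adjusted p = 0.045 and 0.044). E against DMSO also passed without E replicate 2 (-0.51, adjusted p = 0.041), and DTE against DT without DT replicate 1 (-0.55, 0.02) or DTE replicate 3 (-0.55, 0.019). The order was that of AXL, DMSO, E, DT, DTE.

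NGFR, the low-affinity neurotrophin receptor, was the member that rose in E. Its log2 intensity was 6.32, 6.55 and 6.43 in DT, 8.02, 8.06 and 8.13 in E, 7.40, 7.37 and 7.13 in DTE, and 6.91, 7.12 and 6.72 in DMSO. No groups overlapped, DTE replicate 3 exceeded DMSO replicate 2 by little, and after quantile normalization DT and DMSO overlapped. NGFR rose 2.23-fold in E against DMSO (1.15, SE 0.13, adjusted p = 5e-06), the 205th highest of 14580 changes, and was 1.82-fold higher in DTE than in DT (0.87, SE 0.13, adjusted p = 8.2e-05). DT against DMSO was -0.48 (adjusted p = 0.0091), but only -0.11 (adjusted p = 0.63) when quantile-normalized and -0.28 (0.083) when centred on array medians. Leaving out single arrays ended it too, as without DMSO replicate 2 (-0.38, adjusted p = 0.059) or DT replicate 1 (-0.42, 0.053). DTE against DMSO was 0.38 (adjusted p = 0.028) in the deposited values and 0.65 (0.00086) once quantile-normalized. As deposited it was lost without DMSO replicate 1 (0.38, adjusted p = 0.069) or 3 (0.29, 0.13), or DTE replicate 1 (0.34, 0.095) or 2 (0.35, 0.092). The order was E, DTE, DMSO, DT.

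Set side by side, the members differed in what entinostat did to them and were alike in the direction of their values under dabrafenib and trametinib. In DT against DMSO all 5 fell as deposited, against 24.1% of all genes that fell and 27.3% that changed either way, while 3.23% rose. After quantile normalization 4 of 5 fell, beside 7.86% of genes that fell, 8.55% that rose and 16.4% that changed. In E against DMSO, 1 rose (NGFR) and 1 fell (AXL), where 12.5% of all genes rose, 3.54% fell and 16.1% changed; after quantile normalization SOX9 fell too, beside 9.67% of genes that rose, 8.45% that fell and 18.1% that changed. In DTE against DMSO 4 fell and 1 rose, where 22.5% of genes fell, 9.64% rose and 32.2% changed, and all 5 kept these calls after quantile normalization, where 14.2% rose, 14.2% fell and 28.3% changed. In DTE against DT 3 rose (ZEB1, NGFR and TNC) and 0 fell, where 13.8% of genes rose, 5.09% fell and 18.9% changed; after quantile normalization SOX9 fell as well, where 12.2% of genes rose, 12% fell and 24.3% changed. In DTE against E all 5 fell (TNC by 1.18, SOX9 by 1.12, NGFR by 0.77, ZEB1 by 0.75 and AXL by 0.64 on the log2 scale), where 22.4% of genes fell, 2.08% rose and 24.5% changed. After quantile normalization 4 of the 5 fell in that comparison, beside 5.84% of genes that fell, 6.99% that rose and 12.8% that changed. The arrays of the 2 groups were apart for all 5 members in DT, E and DTE against DMSO and in DTE against E, and for 3 of 5 in DTE against DT. The shares of non-overlapping genes over all genes were 39.9% for DT, 32.3% for E and 41.2% for DTE against DMSO, 31.7% for DTE against DT and 39.5% for DTE against E. The comparisons with DMSO share the DMSO arrays, those with DTE the DTE arrays, and DMSO replicate 3 was the lowest of its group for TNC, ZEB1, AXL and NGFR.

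**Figure D2:**
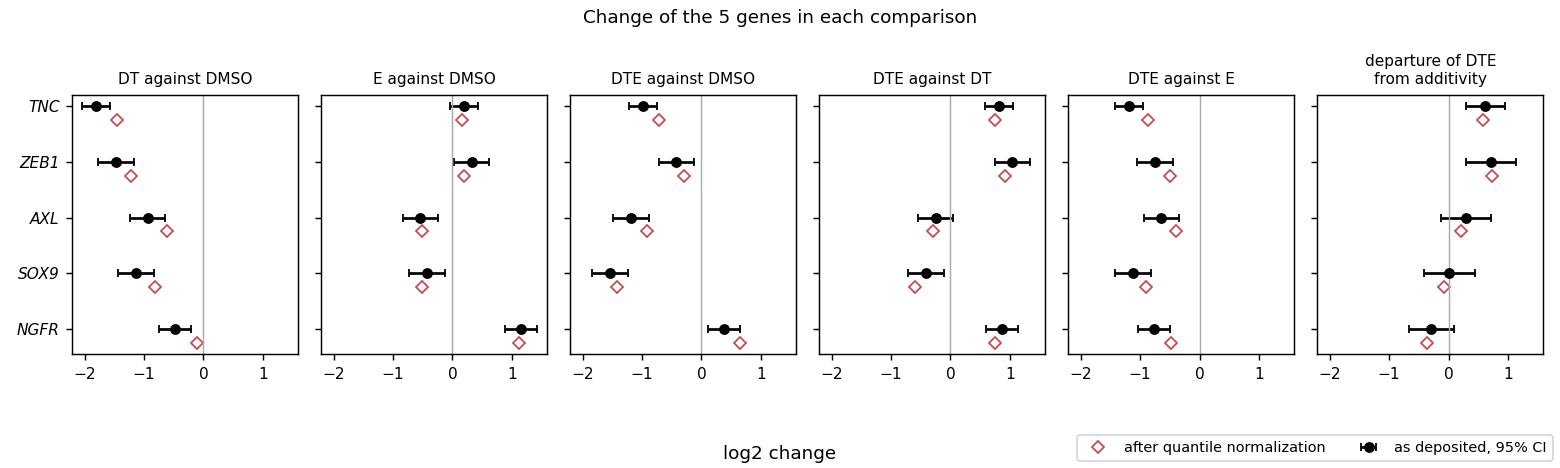
Log2 change (horizontal axis) of the 5 genes in the 6 comparisons: black points with 95% confidence intervals are the values as deposited, open red diamonds those after quantile normalization. In DTE against E all 5 lie below 0, whereas in DTE against DT TNC, ZEB1 and NGFR lie above 0 and AXL and SOX9 below.

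The departure from additivity asks whether the effect of entinostat was the same with and without dabrafenib and trametinib, as the change DTE minus DT less the change E minus DMSO. ZEB1 had the largest departure of the 5: the separate effects summed to -1.15 and DTE stood at -0.43 against DMSO, a departure of 0.72 (SE 0.20, adjusted p = 0.1). For TNC the sum was -1.61 and the value in DTE -0.99, a departure of 0.62 (SE 0.16, adjusted p = 0.071). None of the 5 passed limma's threshold as deposited, where 1.04% of genes did, and these 2 had an unadjusted p under 0.05. The departures of ZEB1 and TNC passed after quantile normalization (ZEB1 0.73, adjusted p = 0.023, and TNC 0.59, adjusted p = 0.036), where 2.15% did. Both also passed after median centring (adjusted p = 0.023 each), TNC with an intensity trend and robust variance (0.62, 0.011) and with a pseudocount of 8 (0.61, 0.015), and ZEB1 without DT replicate 2 (0.86, adjusted p = 0.038). SOX9 in DTE stood at -1.55 against DMSO, and the sum of the separate effects was -1.56. Its departure of 0.01 had a 95% confidence interval from -0.42 to 0.44. AXL (0.30, interval -0.12 to 0.72) and NGFR (-0.29, interval -0.67 to 0.09) did not pass under any alternative tried.

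**Figure D3:**
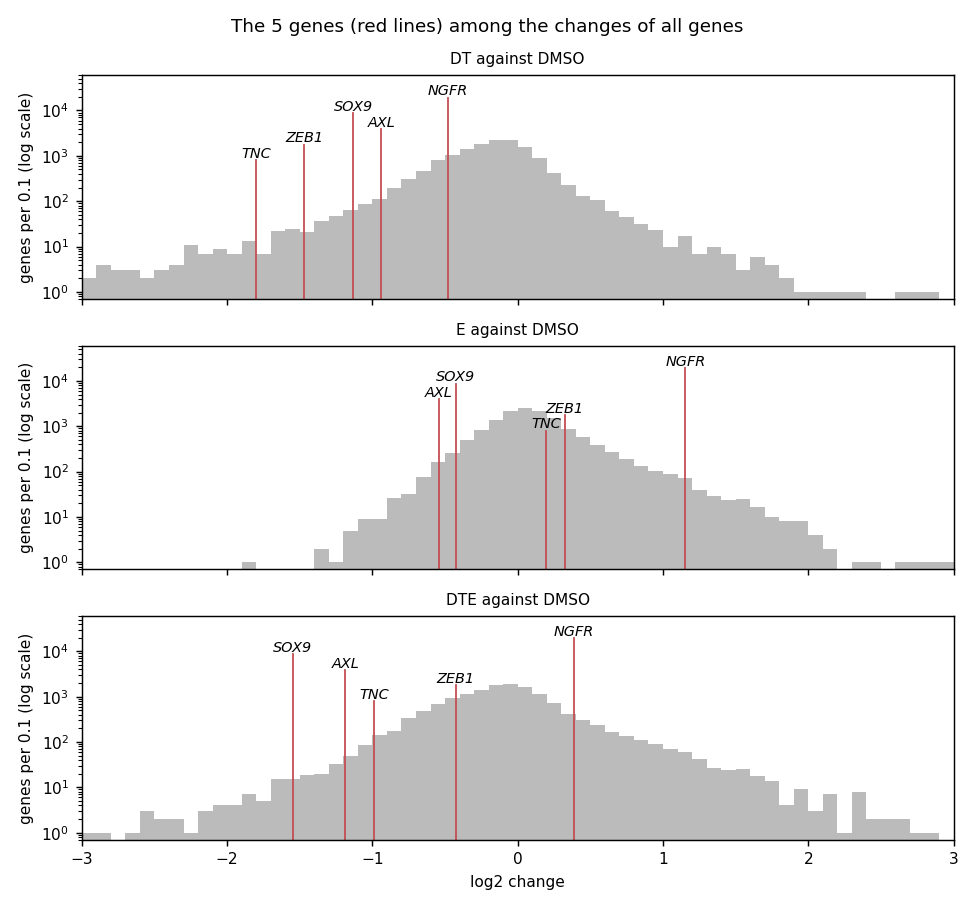
Number of genes per 0.1 of log2 change (grey bars, logarithmic vertical axis) in DT, E and DTE against DMSO, with the 5 genes as red lines; changes beyond 3 in either direction are not drawn. TNC (-1.80) and ZEB1 (-1.47) lie in the lower tail in DT, NGFR (1.15) in the upper tail in E, and SOX9 (-1.55) in the lower tail in DTE.

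A log2 difference taken within each array is free of a constant factor applied to a whole array, though not of quantile normalization. NGFR and AXL, the markers of the neural crest-like and the undifferentiated state, were compared in this way. The log2 difference NGFR less AXL, counted from its DMSO mean, was 0.47, 0.43 and 0.48 in DT, 1.42, 1.92 and 1.76 in E, and 1.53, 1.58 and 1.60 in DTE, while the DMSO arrays lay at -0.04, 0.08 and -0.04. E and DTE overlapped, and both lay above DT, which lay above DMSO. The change shows only that the 2 genes changed unequally, and no test was made of it because the pair was chosen with their values known.

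The likeness of pattern was measured as the root mean square difference of log2 values over the 12 arrays, each gene centred on its own mean, among 14579 other genes. For ZEB1 the most alike were OSBPL3, a lipid-binding protein gene (0.083), SDC2, which encodes the proteoglycan syndecan 2 (0.12), and the apoptosis inhibitor BCL2 (0.14). TNC was closest to PXDN, which encodes the matrix protein peroxidasin (0.12), SYNJ2, a phosphoinositide phosphatase gene (0.13), and MYC (0.16). NGFR was closest to the receptor tyrosine kinase gene FGFR1 (0.15), VAV3 (0.15) and MICB, a ligand of the immune receptor NKG2D (0.15). AXL was closest to the RNA helicase gene DHX33 (0.11), GEMIN4 (0.12) and PFAS, an enzyme of purine synthesis (0.14), and SOX9 to SHROOM2 (0.17), MEX3C (0.19) and WFDC1 (0.20). TNC was the 76th nearest gene to ZEB1 and ZEB1 the 42nd nearest to TNC (0.25). AXL was the 120th nearest to SOX9, but SOX9 only the 969th nearest to AXL (0.30). NGFR and SOX9 lay farthest apart among the members (0.79). The 12 points share the 4 treatments, and likeness is given as a description.

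The wider mesenchymal or undifferentiated list held 11 measured genes besides AXL, ZEB1 and TNC. In DT against DMSO 7 of these 11 fell and 0 rose, beside 24.1% of all genes that fell. The AP-1 subunit gene FOSL1 had the largest change of the list (-4.04), and FN1, which encodes fibronectin, stood at -0.79 and THBS1, which encodes thrombospondin 1, at -0.77. With the members, 10 of the 14 fell with a median of -0.60, beside -0.17 over all genes. After quantile normalization 7 of the 14 fell, beside 7.86% of all genes that fell. Their median was then -0.26, beside 0.0019 over all genes. In DTE against DT 5 of the 11 rose and 0 fell, beside 13.8% of all genes that rose: the YAP target CCN2 by 1.87, the AP-1 subunit JUN by 0.97, THBS1 by 0.91, the EMT factor TWIST1 by 0.89 and FN1 by 0.87. The median of the 14 was 0.56, beside 0.06 over all genes, and FOSL1 stood at 0.03 (adjusted p = 0.91). FN1, THBS1, JUN and TWIST1 are named here after their values were seen. Of these 14 genes, 3 had a value below 0 in that comparison, AXL, SMAD3 and TEAD4, named for that reason, and none of the 3 passed the threshold. In DTE against DMSO 3 of the 14 rose and 7 fell, beside 9.64% and 22.5% of all genes. In DTE against E 0 rose and 8 fell, beside 2.08% and 22.4%. CCN2 and JUN also rose in E against DMSO (1.48 and 0.78) and stood above DMSO in DTE (1.45 and 0.84).

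The neural crest-like list moved in both directions. It held 10 measured genes besides NGFR and SOX9. In DT against DMSO 3 of these rose and 1 fell, beside 3.23% of all genes that rose, 24.1% that fell and 27.3% that changed. With both members the count was 3 and 3. After quantile normalization it was 5 and 2, beside 8.55% of all genes that rose, 7.86% that fell and 16.4% that changed. The transcription factor gene FOXD3 rose by 1.34 and the intermediate filament gene NES fell by 0.92. In DTE against DT 3 of the 10 rose and 2 fell, beside 13.8% of all genes that rose, 5.09% that fell and 18.9% that changed. ERBB3, a receptor tyrosine kinase gene, fell by 1.08 and FOXD3 fell by 0.92. SOX2 stood at -0.73 in E against DMSO (adjusted p = 0.00086) and at 0.54 in DTE against DT (adjusted p = 0.0081; 0.36 and adjusted p = 0.069 after median centring). The medians of the 12 genes were -0.14 in DT against DMSO and 0.06 in DTE against DT, beside -0.17 and 0.06 over all genes.

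The melanocytic list ran the opposite way to TNC and ZEB1 in both contrasts. Of 10 measured genes, 6 rose and 0 fell in DT against DMSO (median 1.22, beside -0.17 over all genes, of which 3.23% rose). In DTE against DT 0 rose and 9 fell (median -0.68, beside 0.06 over all genes, of which 5.09% fell). TYRP1, an enzyme of melanin synthesis, averaged 9.03 ± 0.14 in DT, 6.14 ± 0.06 in E, 7.58 ± 0.28 in DTE and 6.36 ± 0.10 in DMSO (SD, n = 3). MITF, named here after its value was seen, stood at -0.71 in DTE against DT (adjusted p = 0.0021), and EDNRB, the endothelin receptor of melanocytes, fell by 1.49 in the same comparison. SOX10, the counterpart of SOX9, stood at 0.31 in DT against DMSO (adjusted p = 0.067; 0.66 and 0.0022 when quantile-normalized) and at -0.42 in DTE against DT (adjusted p = 0.02), a call lost without DT replicate 2 (-0.37, 0.067) or 3 (-0.42, 0.058) or DTE replicate 3 (-0.32, 0.098).

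**Figure D4:**
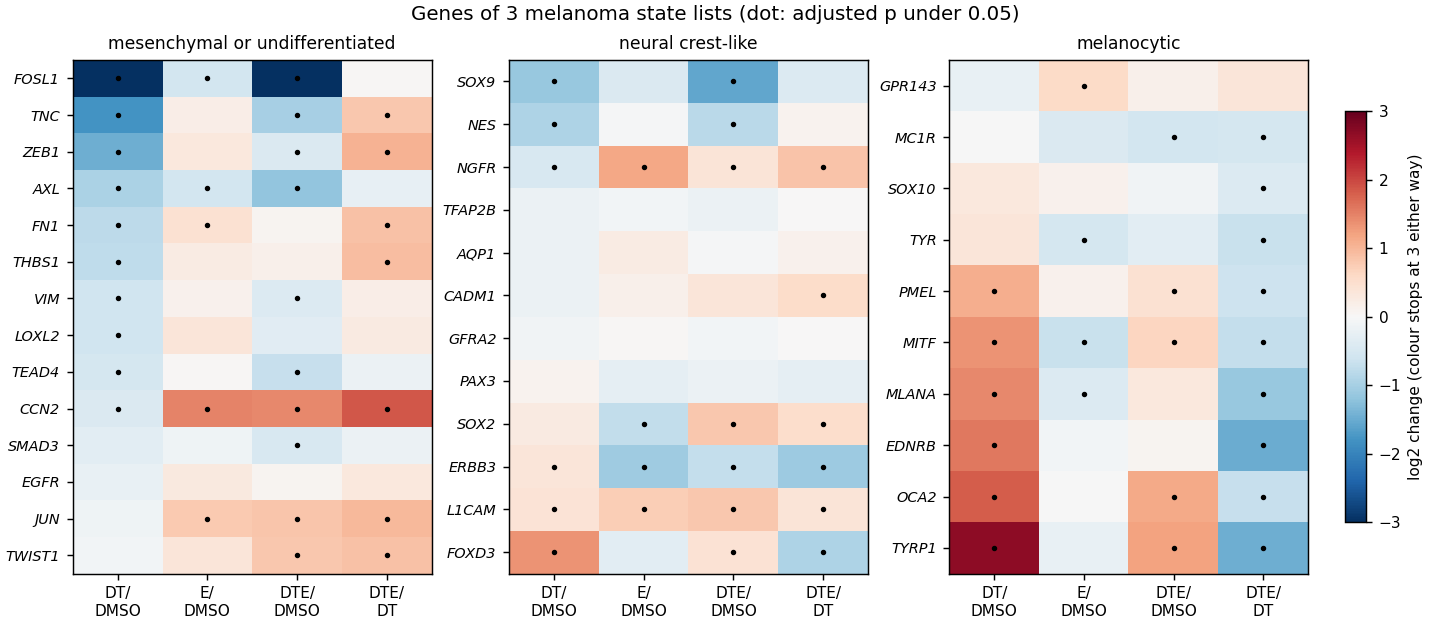
Log2 changes (colour) of all measured genes of the mesenchymal or undifferentiated, neural crest-like and melanocytic lists (rows) in DT, E and DTE against DMSO and in DTE against DT (columns); dots mark adjusted p under 0.05. In the last column 7 of 14 genes of the first list rose and 0 fell, while 9 of 10 of the melanocytic list fell.

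Ligands, partners and relatives of the members were read from further lists. Of the 4 genes around AXL, 3 rose and 0 fell in E against DMSO and in DTE against DT, beside 12.5% and 13.8% of all genes that rose. The ligand gene GAS6 rose by 0.86 in E against DMSO (adjusted p = 8.6e-05), and MERTK, a receptor of the same family, rose by 0.95 in E and by 0.95 in DTE against DMSO. TYRO3, another receptor of that family and the one gene of the list with no call in any comparison, stood at 0.12 in E against DMSO and is named after its values were seen. Of the 4 measured genes around NGFR, 0 rose and 1 fell in DT against DMSO, and 1 rose and 0 fell in DTE against DT, beside 24.1% of all genes that fell and 13.8% that rose. The neurotrophin gene BDNF fell by 0.82 in DT against DMSO (adjusted p = 0.00017) and was 0.73 higher in DTE than in DT (adjusted p = 0.00056). BDNF in DTE against DMSO was -0.09 (adjusted p = 0.67) and 0.03 after quantile normalization. Of the 3 measured genes around TNC, 0 rose and 1 fell in DT against DMSO, and 1 rose and 0 fell in DTE against DT, where the same background holds. SDC4, which encodes syndecan 4, a proteoglycan of the cell surface, fell by 1.06 in DT against DMSO (adjusted p = 1.3e-05) and rose by 1.07 in DTE against DT (adjusted p = 1.4e-05).

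The EMT transcription factors split. ZEB1 fell in DT against DMSO and SNAI1 fell by 1.28 (adjusted p = 1.4e-05), whereas 2 factors expressed in the melanocyte lineage rose, ZEB2 by 1.08 (adjusted p = 0.00036) and SNAI2 by 1.63 (adjusted p = 1.5e-08). In DTE against DT SNAI1 rose by 1.05 and SNAI2 fell by 0.83, and ZEB2 averaged 6.93 ± 0.34 in DTE and 7.04 ± 0.26 in DT. Over the 10 measured genes of this list, 3 rose and 3 fell in DT against DMSO and 3 rose and 3 fell in DTE against DT. Over all genes 3.23% rose, 24.1% fell and 27.3% changed in the first comparison. In the second 13.8% rose, 5.09% fell and 18.9% changed. CTBP1, which encodes a co-repressor that binds ZEB1, fell by 0.73 in DTE against DMSO (adjusted p = 0.00016). In the SOX family, all 19 listed genes were measured. In DT against DMSO 1 rose and 3 fell, beside 3.23% of all genes that rose, 24.1% that fell and 27.3% that changed. After quantile normalization 7 rose and 1 fell, beside 8.55% of all genes that rose, 7.86% that fell and 16.4% that changed. SOX4 was the one that rose as deposited, by 1.43 (adjusted p = 4.2e-08), and in DTE it rose by 1.65 (adjusted p = 7.7e-09), where SOX9 fell by 1.55.

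Markers of other cell types were measured in part, and several moved with the treatments; their part in the results was not tested. The summed intensity of the 3 measured fibroblast markers of 7 listed (LUM, THY1 and DCN) ranged from 185 to 246 in DT, from 301 to 359 in E, from 439 to 600.5 in DTE and from 166 to 193 in DMSO. LUM dominated this sum, and DCN lay below the lower quartile of genes in every group. LUM rose by 0.93 in E and 1.63 in DTE against DMSO, and DCN averaged 1.94 in DT, 2.38 in E, 2.61 in DTE and 1.93 in DMSO. THY1 averaged 4.59 in DT, 5.72 in E, 5.12 in DTE and 5.02 in DMSO. It was thus lowest in DT and highest in E, as TNC, ZEB1 and NGFR were, and its full order was that of NGFR. THY1 rose by 0.69 in E against DMSO (adjusted p = 0.0052), and in DTE against E it stood at -0.60 (adjusted p = 0.012), a call lost after quantile normalization (-0.34, 0.18).

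The 3 Schwann cell markers of 7 summed to between 280 and 296 in DT, 271 and 335 in E, 260 and 276 in DTE, and 296 and 347 in DMSO, a sum that S100B dominated. PMP2 rose by 2.13 in DTE against DMSO (adjusted p = 3.3e-08). S100B went the other way in that comparison, at -0.47 (adjusted p = 0.006), and stood at -0.39 in DTE against E (0.028). Both S100B calls were lost after quantile normalization (-0.19, 0.28, and -0.09, 0.73). MBP stood at 0.34 in DT against DMSO (adjusted p = 0.033), a call lost without DMSO replicate 1 (0.29, 0.14) or 3 (0.34, 0.065) or any of the 3 DT arrays (replicate 1 0.39, 0.051; replicate 2 0.33, 0.067; replicate 3 0.32, 0.12). The 5 epithelial markers of 6 summed to between 59.9 and 73.2 in DT, 134 and 156 in E, 80.0 and 91.6 in DTE, and 86.5 and 110 in DMSO, and 4 of the 5 lay below the median gene of E, DTE and DMSO and all 5 below that of DT. KRT18 averaged 4.45 in DT, 5.96 in E, 5.05 in DTE and 5.52 in DMSO, the order of TNC and ZEB1, and fell by 1.07 in DT against DMSO (adjusted p = 2.4e-05). CLDN4 rose by 1.07 in E against DMSO (adjusted p = 0.002). EPCAM stood at 0.01 in DT against DMSO. It rose by 0.73 in E and by 0.49 in DTE against DMSO (adjusted p = 0.0013 and 0.013), where KRT18 stood at -0.47 in DTE (0.017). CLDN4 and KRT8 had the order of KRT18, and EPCAM and KRT19 did not. KRT8 and KRT19 had no call and are named after their values were seen.

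Of 6 blood cell markers 2 were measured, with sums between 292 and 323 in DT, 591 and 701 in E, 346 and 407 in DTE, and 408 and 445 in DMSO. These sums were dominated by CD68. CD68 rose by 0.63 in E against DMSO (adjusted p = 0.001) and fell by 0.80 in DTE against E (adjusted p = 0.00011). In DT against DMSO CD68 stood at -0.49 (adjusted p = 0.0045), a call lost after quantile normalization (-0.11, 0.61). CD14 averaged between 2.25 and 2.51 in the 4 groups, below the lower quartile of genes, and had no call.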

How the data were processed

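The members and all gene lists were chosen with earlier results of these data known. The values are linear intensities of probe sets as deposited by the authors. RMA, which corrects background, normalizes and summarises probes, and the Transcriptome Analysis Console are named in the submitters' processing notes without versions. The sources used here give neither a genome build nor any later scaling. Of 29396 probe sets, 14748 had 1 symbol, 0 had several and 14648 had none; symbols were updated by NCBI gene identifier, and the brightest probe set was taken for the 156 genes with several, which gave 14580 genes. The number of arrays, 3 per group, limits the precision.

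Log2 intensities of all 12 arrays were fitted with limma 3.58.1 in R 4.3.3 (8 residual degrees of freedom). Benjamini-Hochberg adjustment ran over the 14580 genes of each comparison. A call means an adjusted p under 0.05. The naming rule took the 5 members, from each list up to 2 called genes each way per comparison, and the 3 genes most like each member. Only a part of the list genes that met this rule is named in the text. Other names are stated as chosen after their values were seen. Alternatives were quantile normalization, median centring, a filter on dim genes (11354 kept), a pseudocount of 8, an intensity trend with robust variance, a replicate block, only the groups compared, the mean of a gene's probe sets, and leaving out each array. Same-numbered arrays were compared for pairing: of 18 pairs, 3 correlated above 0.1 (range -0.0967 to 0.172), so the numbers were not taken to pair arrays. Promoter and miRNA sequences are from RefSeq, GRCh38.p14.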

Additional observations from a re-analysis of the deposited data

Results flagged for a closer look

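In 6 genes over all the lists, the effect of entinostat differed with and without dabrafenib and trametinib, where 1.04% of all genes passed. They were 3 of 10 measured melanocytic genes, 1 of 8 ERK output genes and 1 of 3 Schwann cell markers. SOX2 was 1 of 12 in the neural crest-like list and 1 of 19 in the SOX family, and the other lists had none. The lists were written with earlier results of these data known, so these shares are no test against 1.04%. The test was limma's of the departure from additivity, over 3 arrays per group. SOX2, a neural crest-like and SOX family gene, had a departure of 1.27 and stood at 0.54 in DTE against DT and -0.73 in E against DMSO. TYRP1 (-1.24), EDNRB (-1.41) and PMEL (-0.74), all melanocytic genes, departed downwards; PMEL falls outside the naming rule and was chosen after its value was seen. SPRY2, a feedback inhibitor of ERK signalling from the check of the drug labels, departed by 0.87. PMP2, from the Schwann cell markers, departed by 1.53. None of the 5 members passed this test as deposited.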

How the results depend on the processing

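Of 445 alternative values for the members, 409 kept their side of the threshold, 15 lost a call and 21 gained one. Where a value was called in either setting, 0 reversed. A change of sign between uncalled values was counted as kept, as for TNC in E against DMSO (0.19 as deposited, -0.0041 after median centring). In 20 of 30 member results no call changed. For list genes, only 121 results were tried, all taken by the naming rule and so already called as deposited. None of them could gain a call. Of their 1716 alternative values, 1597 kept the call, 119 lost it and 0 reversed. Because called changes were selected, these counts do not measure the stability of the other list genes. The mean of a gene's probe sets equals the main value for the members, and restricting to the groups compared gives no other value for the departure. The dim filter, the trend fit, the replicate block and the restriction to the groups compared also leave the log2 changes unchanged. Under these settings a direction could not reverse, and only the adjusted p could move. Where a call changed with the scaling or another setting, its cause was not tested.

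The split of calls over all genes turned with the scaling: 471 higher and 3514 lower as deposited, 1247 and 1146 after quantile normalization and 1178 and 1743 after median centring for DT against DMSO, and 1825 and 516, 1410 and 1232, and 1098 and 2372 for E against DMSO. Counts of called genes moved to 2393 after quantile normalization for DT against DMSO (3985 as deposited). For DTE against E (3574) they moved to 1870 after quantile normalization and 1985 after median centring. For the departure (151) they moved to 314, 267 and 242 under quantile normalization, median centring and an intensity trend with robust variance, and ranged from 93 to 177 without single arrays.

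NGFR in DT against DMSO lost its call after quantile normalization (-0.11) and median centring (-0.28), and ranged from -0.58 to -0.38 without single arrays. AXL in E against DMSO ranged from -0.66 to -0.43. SOX9 in E against DMSO was called after quantile normalization (-0.52), median centring (-0.63), the dim filter (-0.43), with a pseudocount of 8 (-0.38) and with only the groups compared (-0.43), and ranged from -0.51 to -0.38. NGFR in DTE against DMSO lost its call with only the groups compared (0.38) and ranged from 0.29 to 0.49, and ZEB1 there ranged from -0.54 to -0.36. In DTE against DT, AXL was called after median centring (-0.42), and SOX9 after quantile normalization (-0.60), median centring (-0.59) and the dim filter (-0.42), ranging from -0.55 to -0.31. AXL in DTE against E lost its call after quantile normalization (-0.40). The departure of TNC was called after quantile normalization (0.59), median centring (0.64), the trend fit (0.62) and a pseudocount of 8 (0.61), and that of ZEB1 after quantile normalization (0.73) and median centring (0.74), with a range from 0.63 to 0.86.

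With the replicate number as a block, SOX9 was called in E against DMSO (-0.43, adjusted p = 0.045) and in DTE against DT (-0.42, adjusted p = 0.044), and no other member call changed. The arrays share only a number, so the block is no evidence of pairing.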
